A study of Homo sapiens with 4 samples.

Results

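The proteasome genes were followed in HGC-27 cells, a human gastric cancer cell line, after 48 h with recombinant IL-17B (rIL-17B). Members were the gene names made of PSM, a letter from A to G and a number, without PSMB8 and PSMB9 and without pseudogene and antisense names. The rule used names alone and found 45 of the 31907 gene names that the 4 libraries listed. They comprised 7 genes of the α ring, 7 of the standard β ring, 2 tissue-restricted or inducible β genes, 6 ATPases, 14 non-ATPase genes of the regulatory particle, 4 activators, 1 inhibitor and 4 assembly chaperones. The last 3 kinds, and PSMD5, PSMD9 and PSMD10 among the non-ATPase genes, are named after the proteasome although their products are not fixed subunits of the 26S complex. PSMA8, a testis form of an α subunit, was listed in none of the libraries, and a count of 0 allowed up to 3 counts, or between 0.171 and 0.233 CPM (the count of a gene scaled to a fixed library total).

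The proteasome degrades proteins that carry chains of ubiquitin. Its barrel, the 20S core, is built of α rings that gate the entrance and β rings that hold the proteolytic sites, and each end can carry a 19S regulatory particle in which ATPases unfold the substrate and non-ATPase subunits bind and remove ubiquitin. Interferon exchanges catalytic β subunits for inducible ones and raises the PA28αβ activator, which are used in making peptides for antigen presentation, while shortage of proteasome activity raises most subunit genes together through the transcription factor NFE2L1.

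Both groups were HGC-27 cultures. The control group was treated with PBS, in which the cytokine was also dissolved, and the other group received rIL-17B at 200 ng/ml. Both were harvested at 48 h and gave 2 libraries each. The libraries were prepared with Smart-seq2, which primes on poly(A) tails and amplifies the cDNA, and nothing in the labels says that replicates came from separate cultures, so the spread between them may be technical. The cell line grows from 1 tumour and stands for no other gastric cancer.

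The libraries held between 12888029 and 17555879 counts. rIL-17B replicate 1 stood apart from the other 3. It differed at least 2-fold from rIL-17B replicate 2 in 2899 of 16361 genes tested (0.5 CPM added to each value), whereas the PBS libraries differed so in 110. The 6 mesenchymal markers checked (VIM, CDH2, COL1A1, COL1A2, FN1 and SPARC) summed to 885 CPM in this library and to between 42253 and 50542 CPM in the others, and COL1A2 alone had 1.09 CPM against 4699 to 5516 CPM. Of 8 epithelial and gastric markers, 5 reached 1 CPM in both PBS libraries, with KRT8 and KRT18 the highest, and TFF1 was at 0 everywhere. This list summed to 1820.1 CPM in rIL-17B replicate 1 and to between 779 and 1002 CPM in the others. Nearly all of that sum came from KRT8 (1457 CPM) and KRT18 (355 CPM), while KRT19 had 0.0684 CPM in this library against 2.96 to 3.34 CPM in the others. MUC5AC was at 0 there, but it was low elsewhere too, with 0.126 and 1.47 CPM in the PBS libraries and 0.114 CPM in rIL-17B replicate 2. The library protocol in the labels speaks of monocytes. The 8 monocyte and leukocyte markers summed to between 8.55 and 10.4 CPM per library. CSF1R gave most of it in rIL-17B replicate 1, with 8.14 CPM against 3.90, 5.59 and 6.15 CPM in the others. PTPRC was at 0 there, against 2.96, 1.71 and 2.05 CPM in the others. LYZ was at 0 there as well, but had only 0.0629 to 0.310 CPM in the others. The main values below are given with and without rIL-17B replicate 1, and its part in them was not tested beyond that. In bulk RNA, a change in the share of a kind of cell and a change in RNA per cell cannot be told apart.

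In PBS-treated cells the standard proteasome genes were well expressed but not evenly. To compare genes, plain CPM was divided by the length of the exons of the gene in kilobases. Among the 14 standard core genes PSMA7 was highest, with 113 and 108 CPM per kilobase in PBS replicates 1 and 2 (mean 110.2 ± 3.63, SD, n = 2). PSMB4 followed at 85.8 ± 3.43, PSMB3 at 79.4 ± 0.394 and PSMB7 at 67.6 ± 1.44 CPM per kilobase. PSMB5, PSMB1 and PSMB6 lay at 61.6 ± 2.90, 59.0 ± 0.615 and 54.4 ± 0.117. PSMB2 had 30.9 ± 1.28, PSMA4 27.9 ± 1.45, PSMA3 27.6 ± 0.291 and PSMA5 14.5 ± 0.877 CPM per kilobase. In this order each gene had both PBS libraries above both of the next gene, except PSMA4, whose libraries lay on either side of those of PSMA3. The order depended on the length used, since 7 of the 14 genes took another place with the length of the longest transcript.

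Outside the core, PSMD2, the large scaffold of the 19S base, had 73.7 ± 0.891 CPM per kilobase, and the ATPase PSMC3 had 72.5 ± 0.372. PSMD14, the deubiquitinase that removes ubiquitin chains at the entrance, had 11.5 ± 0.721. Among the activators, PSME3 (PA28γ, a nuclear ring) had 34.5 ± 0.663, PSME1 (PA28α) 26.7 ± 1.23 and PSME4 (PA200) 11.6 ± 0.266 CPM per kilobase.

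**Figure D1:**
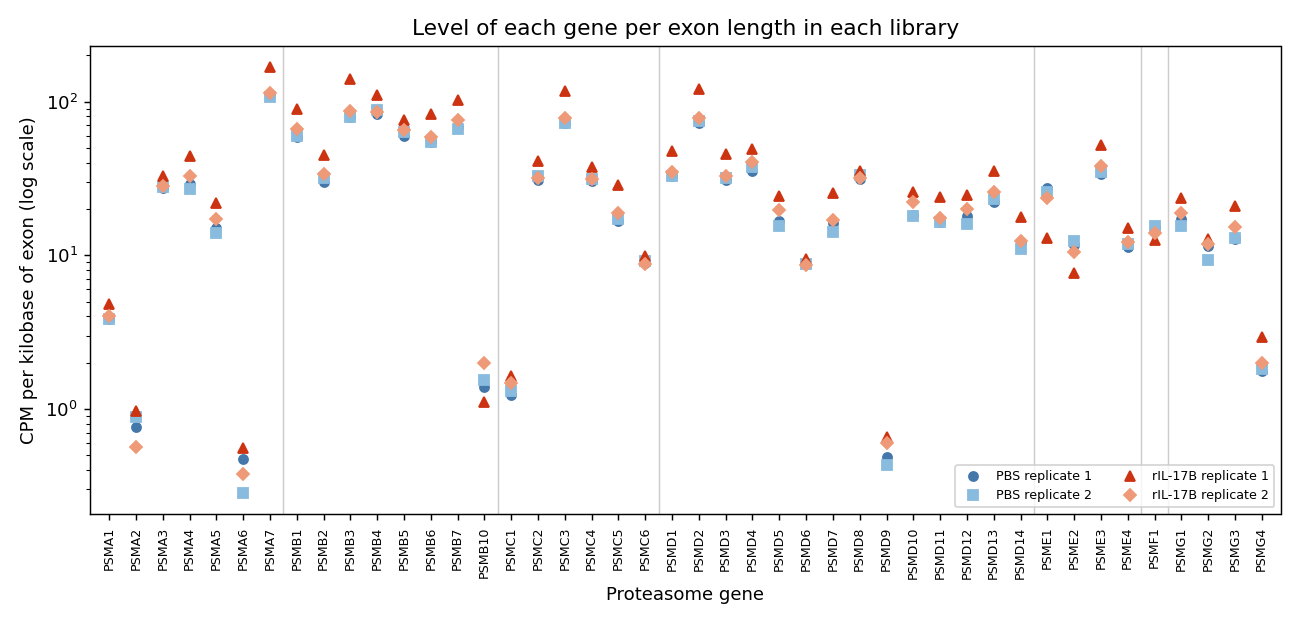
Level of each proteasome gene in each of the 4 libraries, as CPM per kilobase of exon on a log scale, with genes in order of name and grey lines between families. PSMB11 is not drawn because it had 1 count in 1 library. PSMA1, PSMA2, PSMA6, PSMB10, PSMC1, PSMD9 and PSMG4 lie far below most other genes in all 4 libraries.

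Of the 44 members that passed the filter on low counts, 6 stayed under 20 CPM in every library. They were PSMA1, PSMA2 and PSMA6 of the α ring, the ATPase PSMC1, PSMD9, an assembly chaperone of the 19S base, and the inducible PSMB10. PSMA6 had 49 and 24 counts in the controls and 53 and 43 counts after treatment. PSMA2 had 65, 61, 76 and 53 counts in the same order, and PSMA1 had 203, 165, 231 and 232 counts. Each of these α genes is an obligate part of every 20S core, and their levels were between 0.380 and 3.87 CPM per kilobase where PSMA7 had 110.2.

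These low genes shared annotated sequence with other genes. In GENCODE 29 on GRCh38, 24.7% of the exon bases of PSMA1 (chromosome 11, 14504874 to 14643635) were also exons of a protein-coding gene on the same strand, AC018523.2. That gene had 0 counts in every library. Exons of protein-coding genes on the same strand also covered 14.6% of PSMA2, 14.1% of PSMA6, 34.8% of PSMB10 and 19.9% of PSMD9. The partner of PSMB10, AC040162.1, had 21 and 12 counts in the controls and 27 and 35 counts after treatment. WDR66, a partner of PSMD9, had 48, 49, 17 and 71 counts in the same order. Of the exon bases of PSMC1 (chromosome 14, 90256495 to 90275429), 75.8% overlapped exons of NRDE2 on the other strand, and 13 pseudogenes carry its name, of which 4 had counts. PSMC1 itself had 120, 104, 147 and 159 counts, and its pseudogene PSMC1P1 had 218, 175, 258 and 260. PSMC1P1 thus had between 1.64 and 1.82 times the counts of PSMC1 in every library. The counts of these 6 genes are uncertain, because the treatment of reads that fit several genes is not known, and the part of these overlaps in the low counts was not tested. Over all members, 24 of 45 shared no exon base with another gene, and 11 shared more than 10% with genes on either strand.

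Of the tissue-restricted and inducible β genes, the members were PSMB10 and PSMB11. The inducible PSMB8 and PSMB9 were left out by the rule, so the low counts of this pair do not speak for the inducible genes as a whole. PSMB11, the catalytic subunit of thymus epithelium, had 1 count in rIL-17B replicate 2 and none elsewhere. PSMB10, the inducible form of the trypsin-like subunit PSMB7, had 41 and 37 counts in the controls and 30 (rIL-17B replicate 1) and 65 counts (replicate 2) after treatment. Per kilobase it reached 2.03% and 2.33% of PSMB7 with PBS, 1.08% in rIL-17B replicate 1 and 2.64% in replicate 2, so the rIL-17B libraries lay on either side of the PBS libraries.

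Treatment with rIL-17B was then compared with PBS. Most genes of the core, the regulatory particle and the assembly chaperones had higher values in both rIL-17B libraries, by a modest amount, while the PA28αβ genes PSME1 and PSME2 and the inhibitor PSMF1 had lower values in both. No member passed an adjusted p of 0.05. Adjusted over all 16361 genes by the Benjamini-Hochberg method, edgeR's quasi-likelihood test gave the members p values between 0.661 and 0.973, and 0 of all genes passed (0%). At an unadjusted p under 0.05 there were 2 members, PSMD10 and PSMD5, or 226 of all genes (1.38%). With DESeq2 0 members passed an adjusted p of 0.05, and 0 of all genes did (0%).

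The median log2 fold change (rIL-17B over PBS) of the 44 members was 0.26, and that of all genes tested was -0.03. Of the members 37 were above 0 and 7 below, where 47.4% of all genes were above 0. With CPM normalised by edgeR's TMM method, used from here on unless plain CPM is named, both rIL-17B libraries exceeded both PBS libraries in 33 members, against 28.5% of all genes. Both were below both PBS libraries in 4 members, against 30.4% of all genes. These 4 were PSME1, PSME2, PSMF1 and PSMD6, and PSMD6 differed by only -0.02 on the log2 scale. Without rIL-17B replicate 1, rIL-17B replicate 2 exceeded both PBS libraries in 34 members (36% of all genes) and was below both in 6 (37.1% of all genes). Without rIL-17B replicate 2, rIL-17B replicate 1 exceeded both in 37 members (42.5% of all genes) and was below both in 5 (47.7% of all genes).

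The size of the shift differed between the treated libraries. Relative to the PBS mean, the members had a median log2 ratio of 0.40 in the first rIL-17B library (replicate 1) and of 0.11 in the second (replicate 2). In replicate 1, 38 of the 44 members were above the PBS mean, with a range from -1.19 (PSME1) to 0.68 (PSMB3). In replicate 2, 34 were above it, with a range from -0.55 (PSMA2) to 0.44 (PSMB10), both genes of few counts. The PBS libraries differed from each other by a median of 0.06 log2 units, and for 41 of the 44 members by less than 0.2.

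**Figure D2:**
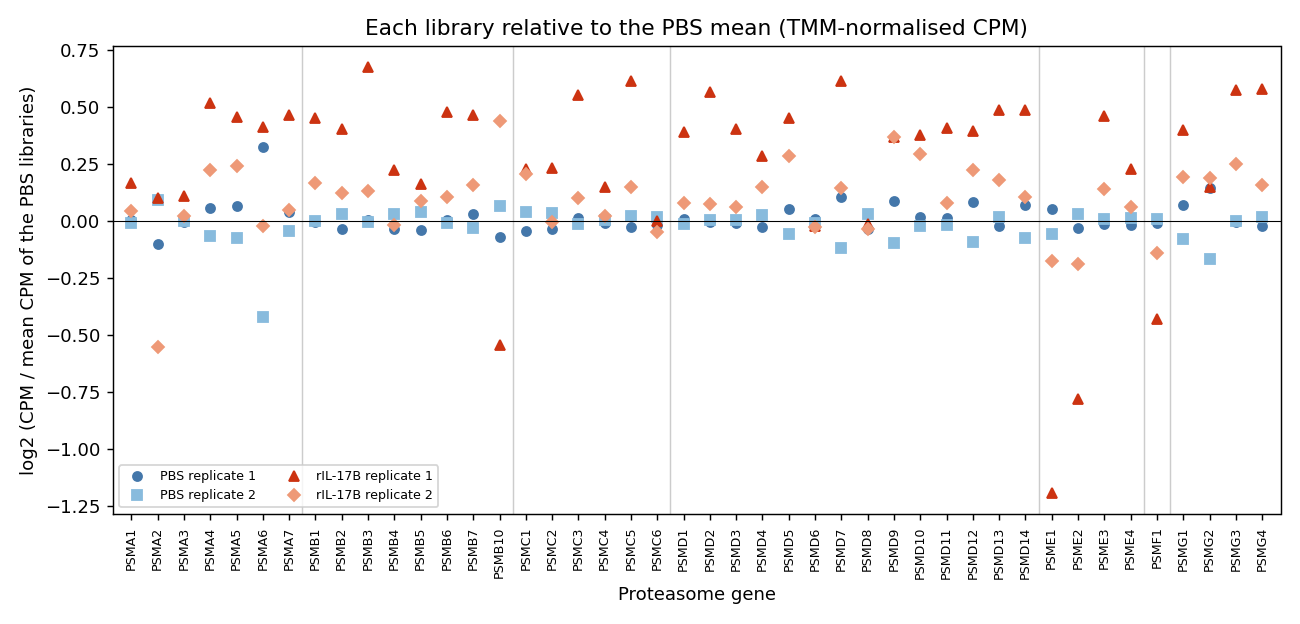
log2 ratio of the TMM-normalised CPM of each tested proteasome gene to the mean of the PBS libraries, for the 4 libraries, with genes in order of name and grey lines between families. The triangles of rIL-17B replicate 1 lie mostly between 0.1 and 0.7 and the diamonds of replicate 2 mostly between 0 and 0.3, whereas both lie below 0 for PSME1, PSME2 and PSMF1.

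Summed over all members, the proteasome genes took 4127 and 4131 plain CPM in the PBS libraries, and 5872 and 4430 plain CPM in rIL-17B replicates 1 and 2. The ratio of the group means was 1.25, and 1.07 without rIL-17B replicate 1. The exact two-sided permutation test gave p = 0.33, the smallest that 2 against 2 libraries allow. By role, the ratio was 1.29 for the α ring, 1.26 for the standard β ring, 1.23 for the ATPases, 1.27 for the non-ATPase genes, 1.30 for the assembly chaperones, 1.13 for the activators and 0.863 for the inhibitor PSMF1. Without rIL-17B replicate 1 these ratios were 1.10, 1.08, 1.04, 1.08, 1.15, 1.04 and 0.911 in the same order.

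In the α ring, 6 of 7 genes had a log2 fold change above 0, with a median of 0.21 (0.04 without rIL-17B replicate 1). PSMA4 had 209 and 192 CPM in the controls and 288 and 235 CPM after treatment, with a fitted log2 fold change of 0.38 (SE 0.15, adjusted p = 0.661 from edgeR). PSMA5 had 89.6 and 81.3 CPM in the controls and 117 and 101 CPM after treatment, with a fitted log2 fold change of 0.35 (SE 0.13). Both treated libraries were above both controls for each of these genes, and without rIL-17B replicate 1 the log2 fold changes were 0.22 and 0.24. PSMA3 was nearly level, with 88.2, 88.5, 95.5 and 89.9 CPM.

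All 7 genes of the standard β ring had a log2 fold change above 0, from 0.11 for PSMB4 to 0.43 for PSMB3, with a median of 0.31 (0.12 without rIL-17B replicate 1). PSMB3, a structural subunit, had 96.4 and 95.9 CPM in the controls, 154 CPM in rIL-17B replicate 1 and 105 CPM in replicate 2 (SE 0.22). The replicates of the treated group thus differed more than the group means, and without replicate 1 the log2 fold change of PSMB3 was 0.13. Among the catalytic genes, PSMB5 (chymotrypsin-like site) had 109 and 115 CPM in the controls and 125 and 119 CPM after treatment, with a fitted log2 fold change of 0.13 (SE 0.10). PSMB6 (caspase-like site) had 81.2 and 80.5 CPM in the controls and 113 and 87.2 CPM after treatment, with a fitted log2 fold change of 0.31 (SE 0.16). PSMB7 (trypsin-like site) had 127 and 121 CPM in the controls and 171 and 139 CPM after treatment, with a fitted log2 fold change of 0.32 (SE 0.15). For the catalytic genes of the standard core, both treated libraries exceeded both controls, and the adjusted p from edgeR was 0.661 for each. Without rIL-17B replicate 1 the log2 fold changes of PSMB5, PSMB6 and PSMB7 were 0.09, 0.11 and 0.16. The inducible PSMB10, in contrast, had 2.66 and 2.93 CPM in the controls and 1.92 and 3.79 CPM after treatment, with a fitted log2 fold change of 0.03 (SE 0.46, adjusted p = 0.973 from edgeR) that turned to -0.54 without rIL-17B replicate 2 and to 0.44 without replicate 1.

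The ATPases form the hexameric motor of the 19S base. Of the 6 genes, 5 had a log2 fold change above 0, with a median of 0.17 (0.06 without rIL-17B replicate 1). PSMC5 had 77.0 and 79.5 CPM in the controls and 120.1 and 86.8 CPM after treatment, with a fitted log2 fold change of 0.40 (SE 0.20) that was 0.15 without rIL-17B replicate 1. Of its exon bases, 19.5% lie under exons of FTSJ3 on the other strand. FTSJ3 had 1452 and 1164 counts in the controls and 2445 and 1943 counts after treatment, and its part in the counts of PSMC5 was not tested. PSMC3 had 171 and 168 CPM in the controls and 249 and 182 CPM after treatment. PSMC6 and PSMC2 overlapped between groups, and PSMC6 had 68.4, 70.0, 69.3 and 67.0 CPM.

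Of the 14 non-ATPase genes, 12 had a log2 fold change above 0 and the same 12 had both treated libraries above both controls, with a median of 0.31 (0.12 without rIL-17B replicate 1). The 12 included PSMD5, PSMD9 and PSMD10, which encode chaperones of base assembly. PSMD10 (gankyrin) had 46.3 and 45.1 CPM in the controls and 59.4 and 56.1 CPM after treatment, with a fitted log2 fold change of 0.34 (SE 0.10, adjusted p = 0.661 from edgeR). PSMD5 had 76.1 and 70.6 CPM in the controls and 100.4 and 89.4 CPM after treatment, with a fitted log2 fold change of 0.37 (SE 0.12). These genes had treated libraries close to each other, and without rIL-17B replicate 1 their log2 fold changes were 0.29 and 0.28 (adjusted p = 0.124 and 0.0821 from edgeR).

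The other non-ATPase genes covered a wide range. PSMD2, the most abundant member by count, had 411 and 414 CPM in the controls, 611 CPM in rIL-17B replicate 1 and 435 CPM in replicate 2, so that its log2 fold change of 0.34 was 0.08 without replicate 1. PSMD14 had 95.5, 86.3, 128 and 97.9 CPM in the same order. PSMD8 and PSMD6, lid subunits, showed no such shift. PSMD8 had 101 and 106 CPM in the controls and 103 and 101 CPM after treatment, and PSMD6 had 82.6 and 81.6 CPM in the controls and 81.0 and 80.6 CPM after treatment.

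All 4 PSMG genes, which encode chaperones that pair up to assemble the α ring, had both treated libraries above both controls, with a median log2 fold change of 0.34 (0.18 without rIL-17B replicate 1). PSMG3 had 25.7 and 25.8 CPM in the controls and 38.5 and 30.7 CPM after treatment, with a fitted log2 fold change of 0.42 (SE 0.16, adjusted p = 0.661 from edgeR). Without rIL-17B replicate 1 it was 0.25 (adjusted p = 0.362 from edgeR). For PSMG2 the distance was small, since PBS replicate 1 had 39.6 CPM and rIL-17B replicate 1 had 39.7 CPM.

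The activators went in different directions. PSME1 had 50.7 and 47.0 CPM in the controls, 21.4 CPM in rIL-17B replicate 1 and 43.3 CPM in replicate 2, with a fitted log2 fold change of -0.59 (SE 0.39, adjusted p = 0.661 from edgeR). PSME2 had 43.1 and 45.0 CPM in the controls, 25.7 CPM in rIL-17B replicate 1 and 38.7 CPM in replicate 2, with a fitted log2 fold change of -0.45 (SE 0.24). These were the members with the largest changes in size, and both treated libraries were below both controls. PSME1 was the only member at least 2-fold apart between a PBS and an rIL-17B library with 0.5 CPM added, and that library was rIL-17B replicate 1. Of all genes, 20.7% were so far apart between PBS replicate 1 and that library, and 21.8% between PBS replicate 2 and that library. None of the members had group means 2-fold apart, against 8.8% of all genes.

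PSME3 and PSME4 had higher values. PSME3 had 181 and 184 CPM in the controls and 252 and 201 CPM after treatment, with a fitted log2 fold change of 0.31 (SE 0.15), or 0.14 without rIL-17B replicate 1. Of its exon bases 5.82% are shared with BECN1, on the other strand. PSME4 had 120.4 and 123 CPM in the controls and 143 and 127 CPM after treatment, with a fitted log2 fold change of 0.15 (SE 0.11), or 0.06 without rIL-17B replicate 1. PSMF1 (PI31), described as an inhibitor of the core in the test tube, had 83.2 and 84.2 CPM in the controls and 62.1 and 76.0 CPM after treatment, with a fitted log2 fold change of -0.28 (SE 0.14).

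Ratios of counts within a library do not depend on the scaling of the libraries. The count of PSME1 was 0.280 and 0.256 of that of PSME3 with PBS, 0.0851 in rIL-17B replicate 1 and 0.215 in replicate 2. The count of PSME2 was 0.238 and 0.245 of that of PSME3 with PBS, 0.102 in rIL-17B replicate 1 and 0.192 in replicate 2. Both ratios were thus lower in each treated library than in each control, and those of rIL-17B replicate 2 lay closer to the controls. PSME1 and PSME2 together had 0.296 and 0.290 of the summed counts of the catalytic genes PSMB5, PSMB6 and PSMB7 with PBS, and 0.115 and 0.238 with rIL-17B replicates 1 and 2. For PSMF1 against the same sum, the ratios were 0.263 and 0.266 with PBS and 0.152 and 0.221 with rIL-17B. The groups did not overlap in any of these 4 ratios, which were chosen after the values of the genes were seen. In CPM, PSME1, PSME2 and PSMF1 were already lower in both treated libraries, and the genes they were divided by were already higher. This outcome was therefore fixed by the values of the single genes and adds no support to them.

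**Figure D3:**
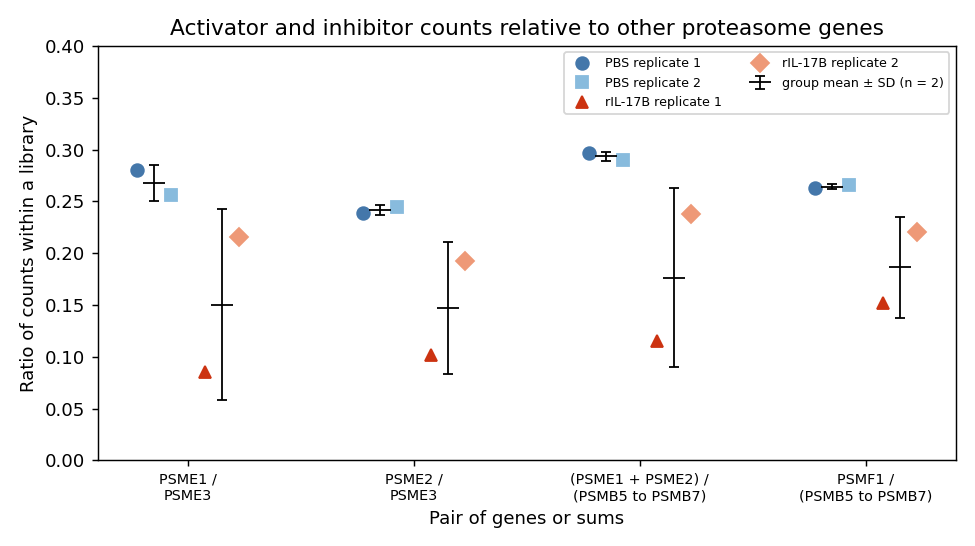
Ratio of counts within each library for the activator genes PSME1 and PSME2 and the inhibitor gene PSMF1 against PSME3 or against the summed catalytic genes PSMB5, PSMB6 and PSMB7. Points are libraries and bars are group means with the SD of 2 libraries. Each rIL-17B point lies below both PBS points, with rIL-17B replicate 1 the lower of the treated libraries in each of the 4 ratios.

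In contrasts with a single treated library, the lone library is assumed to vary like the PBS libraries. Without rIL-17B replicate 2, edgeR gave 28 members higher (24.5% of all genes) and 3 lower (32.8% of all genes) at an adjusted p under 0.05, and the 3 were PSME1, PSME2 and PSMF1. PSME1 then had a log2 fold change of -1.19 (adjusted p = 3.3e-20 from edgeR), PSME2 of -0.78 and PSMF1 of -0.43. Without rIL-17B replicate 1, 0 members passed an adjusted p of 0.05 from edgeR, against 3.03% of all genes. PSME1, PSME2 and PSMF1 then had log2 fold changes of -0.18, -0.19 and -0.14. The calls on the members thus rested on rIL-17B replicate 1, the library that stood apart.

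**Figure D4:**
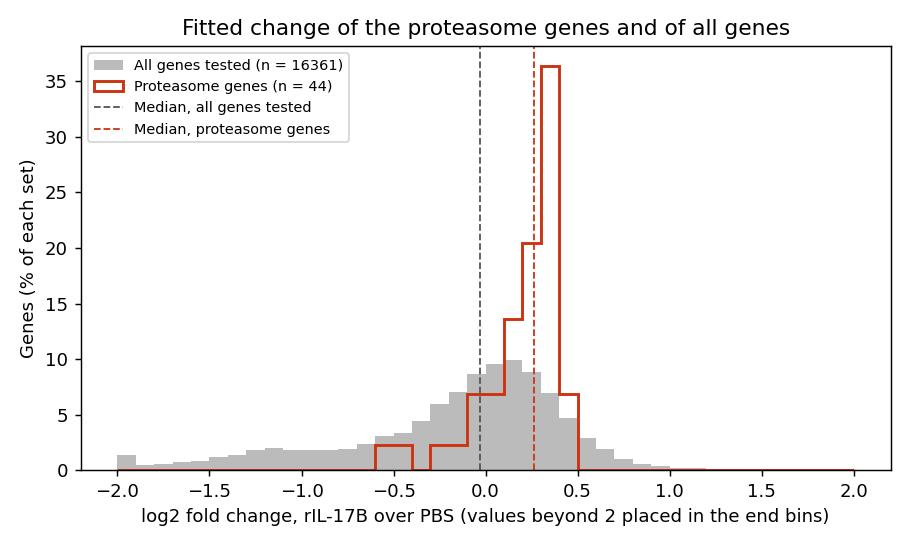
Distribution of the fitted log2 fold change (rIL-17B over PBS) of the 44 proteasome genes and of all 16361 genes tested, as the percentage of each set in bins of 0.1, with dashed lines at the medians of 0.26 and -0.03. The proteasome genes lie mostly between 0 and 0.5, and the few to the left include PSME1 and PSME2.

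Genes that work with the proteasome were read from a list of 36 names, all of which were tested. None passed an adjusted p of 0.05 or an unadjusted p of 0.05 in edgeR, and none passed an adjusted p of 0.05 with DESeq2. Of these genes 26 had a log2 fold change above 0 and 10 below, with a median of 0.08, beside 0.26 for the proteasome genes. The medians were 0.02 and 0.11 without rIL-17B replicate 1. The smallest p values belonged to USP14, UCHL5 and DDI2. USP14, a deubiquitinase that docks on the 19S base, had 131.2 and 131.2 CPM in the controls and 163 and 151 CPM after treatment (log2 fold change 0.26, SE 0.10). UCHL5, the other deubiquitinase that docks there, had 67.6 and 64.5 CPM in the controls and 96.9 and 75.8 CPM after treatment (log2 fold change 0.39, SE 0.16). DDI2, the protease that activates NFE2L1, had 56.4 and 53.5 CPM in the controls and 74.1 and 59.6 CPM after treatment (log2 fold change 0.28, SE 0.15). The log2 fold changes of USP14, UCHL5 and DDI2 were 0.20, 0.20 and 0.11 without rIL-17B replicate 1.

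The gene of NFE2L1 itself had 346 and 340.2 CPM in the controls and 249 and 324 CPM after treatment, with a fitted log2 fold change of -0.26 (SE 0.18), or -0.08 without rIL-17B replicate 1. Both treated libraries were below both controls, and a relation of NFE2L1 to the values of the subunit genes was not tested. The ubiquitin receptor ADRM1 had 40.9, 44.6, 51.2 and 43.3 CPM, and POMP, which matures the 20S core, had 89.0, 79.2, 85.5 and 89.0 CPM, so that the groups overlapped for both.

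Other large housekeeping complexes gave similar numbers. The 82 cytosolic ribosomal protein genes tested had a median log2 fold change of 0.19, with 63 above 0, and the 77 mitochondrial ribosomal protein genes had a median of 0.30, with 73 above 0. The medians in rIL-17B replicates 1 and 2 relative to the PBS mean were 0.28 and 0.08 for the first and 0.44 and 0.13 for the second, beside 0.40 and 0.11 for the proteasome genes. The difference between these sets was not tested.

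Promoters were read because most members shifted together while PSME1 and PSME2 went the other way. RefSeq windows on GRCh38.p14, from 250 bases before to 50 bases after a start site, were matched for 39 of the 45 members, and a gene with several windows was counted once. The core of the antioxidant response element bound by NFE2L1 and NFE2L2, TGACNNNGC on either strand, was found for 14 of the 39 members (35.9%), for 19.2% of 11138 tested genes with a window and in 13.3% of all 35116 windows. The tested members with it had a median log2 fold change of 0.27 and those without it of 0.21. CCAAT was found for 48.7% of the members and 43.0% of the tested genes (34.6% of windows), and the ETS core CCGGAAG for 35.9% and 20.9% (10.3% of windows). The following stretches show the element in capitals in 4 genes with higher values in both treated libraries.

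PSMD5, chr9:120843028-120843076, minus strand: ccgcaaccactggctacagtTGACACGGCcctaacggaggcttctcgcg
PSMA4, chr15:78540640-78540688, plus strand: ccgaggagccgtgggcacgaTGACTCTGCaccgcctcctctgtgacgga
PSMB3, chr17:38752617-38752665, plus strand: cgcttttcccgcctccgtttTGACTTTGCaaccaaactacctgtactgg
PSMC5, chr17:63827644-63827692, plus strand: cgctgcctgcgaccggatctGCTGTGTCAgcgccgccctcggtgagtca

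In PSMC5 the element reads on the opposite strand. PSME1 and PSME2 held this core as well, and both had lower values in the treated libraries. Of the 14 members with the core 12 had both treated libraries above both controls, as had 15 of the 24 tested members with a window but without the core. For CCAAT the counts were 14 of 18 tested members with it and 13 of 20 without it, with median log2 fold changes of 0.31 and 0.19. For the ETS core they were 8 of 14 and 19 of 24, with medians of 0.21 and 0.25, so the direction was the opposite. These counts and medians were not tested.

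A match in a window describes its letters and does not show that a factor binds there. The motifs were chosen after the values of the genes were seen and after other motifs had been tried.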

How the data were processed

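Each library came as raw counts, deposited by the authors as whole numbers of reads per gene name without normalization. The submitters' processing notes name hg38, Bowtie2 2.2.3, HISAT2 2.1.0, TopHat2 and HTSeq 0.6.0 without their roles. The annotation and the strand setting are not given in the sources used here, so that genes overlapping others are uncertain. Names turned into numbers (22 to 25 entries per library) were left out, repeated names were used once and missing names were given 0. Floors cover counting error only, since PCR copies are not independent molecules.

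The tests between groups used edgeR 4.0.16 under R 4.3.3 (filterByExpr, TMM, quasi-likelihood F test, Benjamini-Hochberg over 16361 genes, threshold 0.05), and the SE is the absolute log2 fold change divided by the square root of F. The fit was also tried on simulated counts in which no library stood apart, which cannot show how it behaves on these libraries. Alternatives were a replicate block, DESeq2 1.42.0, other normalizations and filters, and leaving out each library. Exon lengths and overlaps came from GENCODE 29 (primary assembly, GRCh38). Tables and figures were made with Python 3.11.15 and SciPy 1.17.1.

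Full statistics were given for PSMB5, PSMB6, PSMB7, PSMB10, PSME1 to PSME4, and the 5 members with the smallest p and the 5 with the largest absolute log2 fold change. The other members are described by role, and of the accessory list the 3 with the smallest p. Other genes named were chosen after their values were seen. The members and lists were chosen with earlier results of these data known.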

Additional observations from a re-analysis of the deposited data

How the results depend on the processing

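Leaving out 1 library moved the number of proteasome genes past an adjusted p of 0.05 between 0 and 31 and that of accessory genes between 0 and 23. The upper values arose without rIL-17B replicate 2, where 57.3% of all genes passed, so that the 23 accessory genes (63.9% of their list) lay near the background. The median log2 fold change of the members then ranged from 0.11 (without rIL-17B replicate 1) to 0.39, and the ratio of summed plain CPM from 1.07 to 1.42 (1.18 with TMM). In the other alternatives the count of members past the threshold was 0 and the median lay between 0.22 and 0.34. A further setting, chosen after the data were seen, left out members sharing more than 10% of their exon bases on either strand. It also left out members with a counted pseudogene of their name. The median was then 0.27 over 30 genes. PSMD10, PSMC5 and PSME2 were among the members left out. Both treated libraries exceeded both controls in 33 members with library totals alone (31.5% of all genes) and in 32 with upper-quartile normalization (27.2%), and were below them in 3 with each (27.5% and 31.4% of all genes).

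The replicate numbers are shared by both groups, but same-numbered libraries deviated with a correlation of only 0.08 across genes. With the number as a replicate block, 0 members passed an adjusted p of 0.05, 0 an unadjusted one, and the median was 0.25. PSMB10 (0.03) turned to -0.048 with the replicate block and to -0.038 without PBS replicate 1, and leaving out 1 library moved it between -0.54 and 0.44. The other 14 genes with full statistics kept their direction in each alternative. With the length of the longest transcript, 7 of the 14 core genes took another place in the order of levels. The low counts of PSMA2, PSMA6 and PSMB10 limit what can be shown for them.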

Other observations

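Among the names that start with PSM but were not members, the antisense RNA PSMA3-AS1 had 588 and 532 counts in the controls and 454 and 670 counts in the treated libraries. PSMG3-AS1 had 99 and 79 counts in the controls and 22 and 87 counts in the treated libraries, while PSMG3, with which it shares 3.06% of the exon bases of PSMG3, had more CPM in both treated libraries. PSMC3IP, which encodes a recombination factor and no proteasome subunit, had 228 and 196 counts in the controls and 432 and 308 counts in the treated libraries.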
